A study of Mus musculus with 12 samples.

Results

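The 9 genes described here encode lysine acetyltransferases that act on histones: Ep300 (p300), Crebbp (CBP), Kat2a (GCN5), Kat2b (PCAF), Kat5 (TIP60), Kat6a (MOZ), Kat6b (MORF), Kat7 (HBO1) and Kat8 (MOF). They are listed by name, with no threshold on a measured value, and the rows bearing these names were read in the RNA-seq table of every sample. Each of the 9 genes had 1 row in each of the 12 tables, out of 23301 gene names that the tables have in common. All mice were 12-week-old females. The Normal group was mammary gland of untreated FVB wild type mice, 3 samples, each pooled from the abdominal and inguinal glands of 3 mice. The Tumor group was thoracic mammary tumor of untreated MMTV-PyVT mice, 3 samples of 1 mouse each. The DMSO and C646 groups, 3 samples each, were the biggest tumor of MMTV-PyVT mice injected with the solvent DMSO or with C646, a small-molecule inhibitor of the catalytic activity of p300, and the labels give 1 mg/kg for both. The MMTV promoter drives the polyoma middle T oncogene mainly in mammary epithelium, so all 9 tumor samples carry the same transgene. Tissue, gland position, strain label and pooling of mice differ together between Normal and Tumor, and cannot be told apart.

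Histone acetyltransferases move an acetyl group from acetyl-CoA to lysines of the histone tails, which loosens the hold of the tail on DNA and gives docking sites to bromodomain proteins. p300 and CBP are large paralogous coactivators that are recruited by many transcription factors and write H3K27ac and H3K18ac at enhancers and promoters. GCN5 and PCAF are alternative catalytic subunits of the SAGA and ATAC coactivator complexes and act mainly on H3K9. The MYST family holds TIP60, which acetylates H4 and H2A and takes part in DNA repair, MOZ and MORF, which act on H3K23 in complexes with BRPF proteins, HBO1, which acts on H3K14 and on H4 near replication origins, and MOF, the enzyme of H4K16ac. Only mRNA was examined here, and C646 acts on the enzyme, so the level of Ep300 mRNA does not check the treatment. By western blot, the authors found more p300 protein in tumors than in normal tissue, and the mRNA values below do not measure protein.

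On GRCm38, in the GENCODE vM21 annotation, the genes lie on 8 chromosomes, with Kat2a (chr11:100704746-100712465, minus strand) and Kat7 (chr11:95274259-95310246, minus strand) sharing one. Ep300 lies at chr15:81585351-81652077 on the plus strand and Crebbp at chr16:4081328-4213997 on the minus strand. Kat2b lies at chr17:53566861-53672720 (plus), Kat5 at chr19:5603014-5610237 (minus), Kat6a at chr8:22859535-22943259 (plus), Kat6b at chr14:21481434-21672478 (plus) and Kat8 at chr7:127912516-127925837 (plus). The libraries did not keep strand. Exons of Kat5 share 426 bases, 12.1% of its exonic bases, with Rnaseh2c on the opposite strand, and exons of Kat8 share 122 bases, 4.22%, with Prss8 on the opposite strand, so reads in these bases cannot be assigned to 1 gene.

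The 100 bases before the annotated gene start are shown for the 5 members whose upstream stretch the RefSeq promoter table (GRCm38) held in full. They are Kat2a (chr11:100712466-100712565, minus strand) and Kat5 (chr19:5610238-5610337, minus strand), which were higher in untreated tumors, Kat2b (chr17:53566761-53566860, plus strand), which was lower, and Kat7 (chr11:95310247-95310346, minus strand) and Kat8 (chr7:127912416-127912515, plus strand), which did not pass the test. No annotated exon lies in these stretches. Capitals mark TGACG or its reverse complement CGTCA, the core of the element to which CREB, the factor CBP is named after, can bind.
Kat2a: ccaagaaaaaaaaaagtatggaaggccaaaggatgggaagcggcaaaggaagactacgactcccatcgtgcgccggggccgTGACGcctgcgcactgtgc
Kat5: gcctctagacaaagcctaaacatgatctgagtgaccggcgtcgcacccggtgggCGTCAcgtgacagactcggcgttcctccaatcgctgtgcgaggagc
Kat2b: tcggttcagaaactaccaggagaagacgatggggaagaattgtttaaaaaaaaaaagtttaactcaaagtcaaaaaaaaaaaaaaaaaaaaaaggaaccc
Kat7: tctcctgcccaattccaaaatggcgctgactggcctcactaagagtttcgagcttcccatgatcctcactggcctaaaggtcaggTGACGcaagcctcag
Kat8: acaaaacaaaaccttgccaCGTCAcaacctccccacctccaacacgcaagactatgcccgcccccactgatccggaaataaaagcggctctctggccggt
Of these 100 bases, 57 were G or C in Kat2a, 61 in Kat5, 54 in Kat7, 56 in Kat8 and 30 in Kat2b, which carries a long run of A. The motif stood once in each stretch but that of Kat2b, so it was present in higher and in uncalled genes alike. In the table, 10.5% of the 32851 windows held it within the 100 bases before their RefSeq start, and 17.8% within 250 bases. For Kat5 and Kat2b the RefSeq start lies well inside the annotated gene, so their printed stretches are not the region counted there. The 250-base window of Kat2b at its upstream start held it once too. Those of Ep300, Crebbp and Kat6b, whose RefSeq starts lie inside the annotated gene, did not hold it. The match is a description of these letters only, and the motif was picked after the sequences were seen.

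The values are FPKM, fragment numbers corrected for the length of the transcript and the size of the library, and are compared on the log2(FPKM + 0.03125) scale. Read numbers were not recorded with them. In Normal, the sums of the marker lists showed a fat-rich gland, with 26499 to 33385 FPKM over 9 adipocyte genes and 398 to 513 FPKM over 8 lymphocyte genes. In Tumor, the adipocyte sum was 120 to 2512 FPKM and the lymphocyte sum 1.09 to 2.75 FPKM, with Ms4a1 at 0 in every tumor sample of that group. The sum of 8 epithelial genes was 479 to 1007 FPKM in Normal and 3206 to 4418 FPKM in Tumor, and all 8 were detected at 1 FPKM or more in every sample of both groups. The sum of 8 proliferation genes was 21.7 to 50.9 FPKM in Normal and 128 to 209 FPKM in Tumor, and 6 skeletal muscle genes summed to 8.54 to 66.7 FPKM in Normal and 1411 to 3942 FPKM in Tumor. Fibroblast genes (5) summed to 1439 to 1616 FPKM against 240 to 522 FPKM, endothelial genes (5) to 111 to 136 FPKM against 13.5 to 23.2 FPKM, and macrophage genes (5) to 117 to 142 FPKM against 33.6 to 51.7 FPKM. Their part in the results was not tested. In bulk tissue, fewer cells of a type and less RNA per cell cannot be told apart.

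The first comparison asked how the acetyltransferase mRNAs differed between mammary tumors and normal gland. The mRNAs of 4 enzymes, p300, PCAF, MOZ and MORF, were lower in untreated tumors, and those of 2, GCN5 and TIP60, were higher. Ep300 was at 40.3% of its normal mean, Kat2b at 48.9%, Kat6a at 47.6% and Kat6b at 52.0%, while Kat2a was 2.23-fold and Kat5 1.28-fold of normal. Crebbp, Kat7 and Kat8 did not pass the test. Of the 13031 genes tested, 28.8% passed the threshold (adjusted p of 0.05) as higher and 31.7% as lower, so the 2 of 9 and 4 of 9 acetyltransferases called stood near the share of all genes. The median log2 change was -0.20 over the 9 genes and -0.02 over all genes tested.

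**Figure D1:**
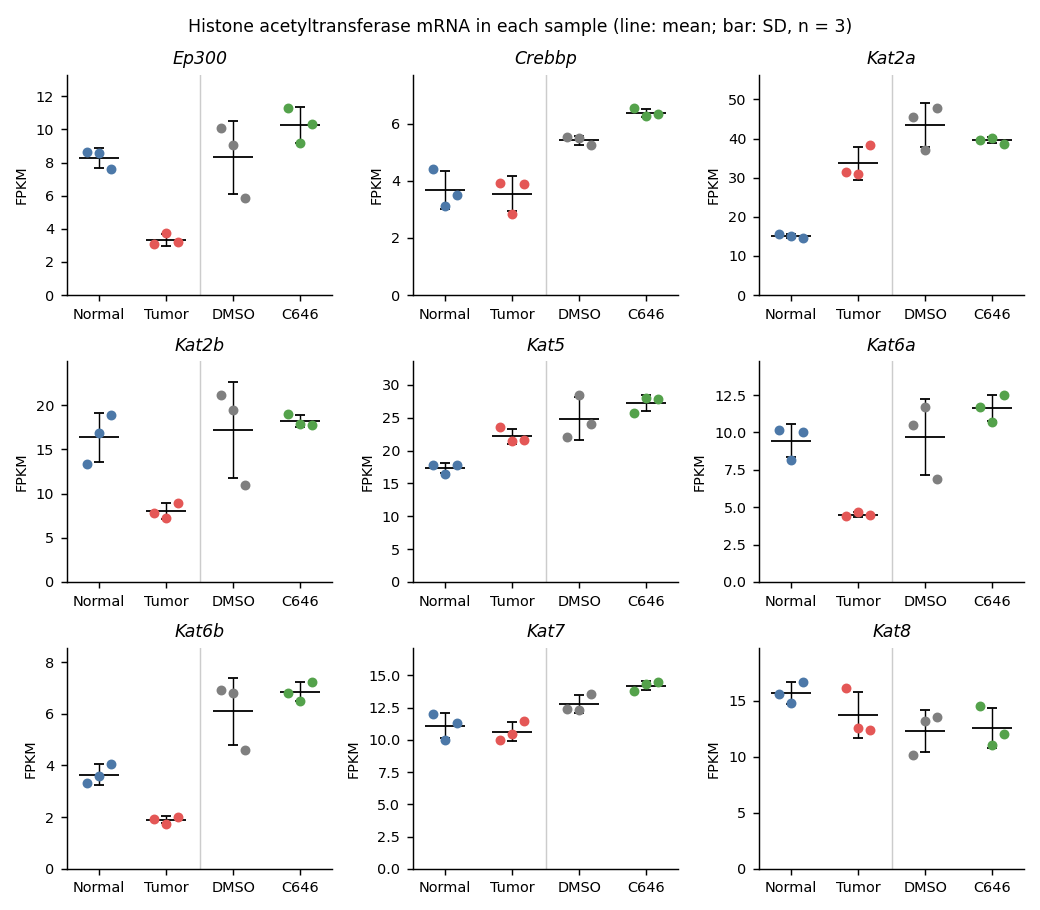
FPKM of each acetyltransferase gene in each of the 12 samples, 1 panel per gene; points are samples (replicates 1 to 3 from left to right within a group), horizontal lines are group means and bars are SD (n = 3). Tumor points lie below all Normal points for Ep300, Kat2b, Kat6a and Kat6b and above them for Kat2a and Kat5, and the vertical line separates the 2 experiments, which were processed as separate tables.

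Among the enhancer coactivators, Ep300 measured 8.65, 8.57 and 7.59 FPKM in Normal replicates 1 to 3 and 3.06, 3.74 and 3.19 FPKM in the Tumor replicates. All 3 tumors were below all 3 normal glands. The mean was 8.27 ± 0.591 FPKM (SD, n = 3) in Normal and 3.33 ± 0.361 FPKM in Tumor, a log2 change of -1.31 (SE 0.164, 95% interval -1.69 to -0.92, limma adjusted p = 0.000466). Crebbp, whose product shares most of its catalytic region with p300, measured 4.39, 3.11 and 3.50 FPKM in Normal and 3.903, 2.84 and 3.89 FPKM in Tumor. The 2 groups overlapped, and its log2 change was -0.05 (SE 0.224, 95% interval -0.58 to 0.48, limma adjusted p = 0.860). The ratio of Ep300 to Crebbp was 1.97 to 2.76 in Normal and 0.784 to 1.32 in Tumor.

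The pair of SAGA and ATAC catalytic subunits went in opposite directions. Kat2a measured 15.6, 15.1 and 14.6 FPKM in Normal and 31.5, 30.9 and 38.4 FPKM in Tumor. The lowest tumor, replicate 2, was well above the highest normal gland, replicate 1. Its log2 change was 1.15 (SE 0.136, 95% interval 0.83 to 1.47, limma adjusted p = 0.000358). Kat2b measured 13.4, 16.8 and 18.9 FPKM in Normal and 7.84, 7.19 and 8.97 FPKM in Tumor. The groups did not overlap, and Normal replicate 1 was the lowest of the normal glands. Its log2 change was -1.02 (SE 0.176, 95% interval -1.44 to -0.61, limma adjusted p = 0.00201). The ratio of Kat2a to Kat2b was 0.772 to 1.17 in Normal and 4.02 to 4.30 in Tumor.

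In the MYST family, the MOZ and MORF genes were both lower in untreated tumors. Kat6a measured 10.2, 8.18 and 9.995 FPKM in Normal and 4.38, 4.69 and 4.44 FPKM in Tumor, with no overlap, and its log2 change was -1.06 (SE 0.156, 95% interval -1.43 to -0.69, limma adjusted p = 0.000997). By mean, Kat6b was the lowest of the 9 in both groups, although in Normal its range overlapped that of Crebbp. Kat6b measured 3.30, 3.57 and 4.07 FPKM in Normal and 1.94, 1.75 and 1.999 FPKM in Tumor. Its groups did not overlap either, and its log2 change was -0.93 (SE 0.195, 95% interval -1.39 to -0.47, limma adjusted p = 0.00483). Under quantile normalization the change of Kat6b was -0.35 and no longer passed (limma adjusted p = 0.158). The ratio of Kat6a to Kat6b was 2.29 to 3.09 in Normal and 2.22 to 2.68 in Tumor, and these ranges overlapped.

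Kat5 measured 17.7, 16.4 and 17.8 FPKM in Normal and 23.5, 21.4 and 21.6 FPKM in Tumor, with all tumors above all normal glands. This was the smallest change that passed, a log2 change of 0.36 (SE 0.120, 95% interval 0.07 to 0.64, limma adjusted p = 0.0355), and 10 of 17 other settings, listed in the closing section, took its adjusted p above 0.05. Kat7 measured 12.0, 10.02 and 11.3 FPKM in Normal and 10.01, 10.4 and 11.5 FPKM in Tumor, overlapping ranges, with a log2 change of -0.06 (95% interval -0.39 to 0.27, limma adjusted p = 0.733). Kat8 measured 15.6, 14.8 and 16.7 FPKM in Normal and 16.1, 12.6 and 12.4 FPKM in Tumor. Tumor replicate 1 lay within the normal range and the other two below it, and the log2 change was -0.20 (95% interval -0.56 to 0.16, limma adjusted p = 0.284). Under quantile normalization, which moved the median change of all genes by 0.13, Crebbp was at 0.44 and Kat7 at 0.05, neither past the test. The 2 members above and the 4 below without overlap stand beside 33.1% and 35.8% of all genes tested. With 3 samples against 3, an exact permutation test of a single gene cannot go below p = 0.1, and the 6 genes that passed each reached it.

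**Figure D2:**
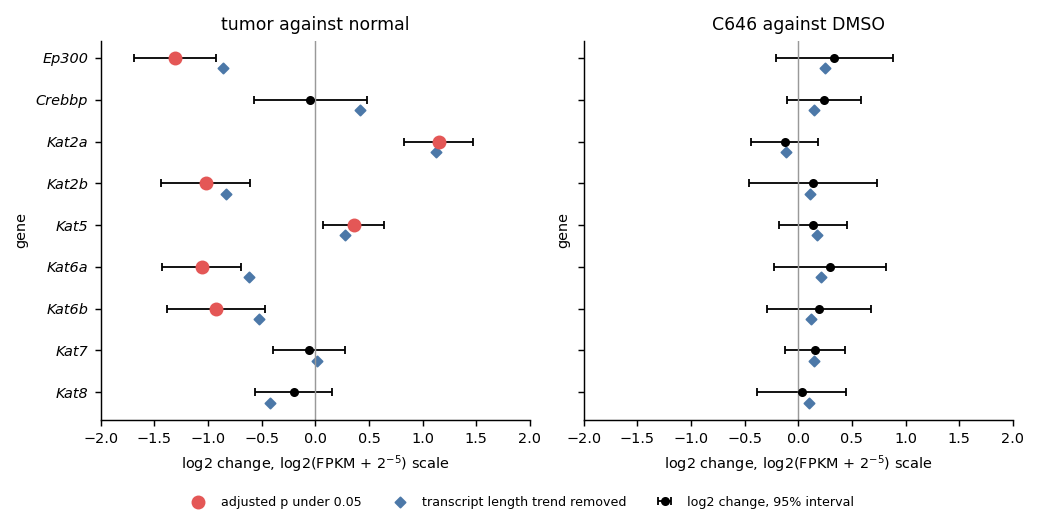
Log2 change of each acetyltransferase gene in Tumor against Normal (left) and C646 against DMSO (right) on the log2(FPKM + 0.03125) scale; circles and bars are the limma estimate with its 95% interval, red circles have an adjusted p under 0.05, and diamonds give the estimate after the trend with transcript length was removed in each sample. Of the 9 genes, 6 are red on the left and 0 on the right, and on the left panel the diamonds of Ep300, Crebbp, Kat2b, Kat6a, Kat6b and Kat7 lie to the right of their circles and those of Kat2a, Kat5 and Kat8 to the left.

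The order of the levels was different in the 2 tissues. In Normal, Kat5, Kat2b, Kat8 and Kat2a came first, with means of 15.1 to 17.3 FPKM and overlapping neighbours, followed by Kat7, Kat6a and Ep300 at 8.27 to 11.1 FPKM, again overlapping, and by Crebbp and Kat6b at 3.67 and 3.65 FPKM. In Tumor, Kat2a led at 33.6 ± 4.17 FPKM (SD, n = 3), and Kat5 (22.2 ± 1.159 FPKM), Kat8 (13.7 ± 2.08 FPKM), Kat7 (10.6 ± 0.757 FPKM), Kat2b (8.0005 ± 0.900 FPKM) and Kat6a (4.50 ± 0.161 FPKM) followed with ranges apart from their neighbours. Crebbp (3.54 ± 0.610 FPKM) and Ep300 overlapped below them, and Kat6b was last at 1.90 ± 0.129 FPKM.

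The sum of the 9 mRNAs overlapped between the tissues, 96.6 to 104 FPKM in Normal and 95.6 to 106 FPKM in Tumor, while its make-up differed. Kat2a held 14.0 to 15.6% of the sum in Normal and 30.8 to 36.1% in Tumor. Ep300 held 7.27 to 8.87% in Normal and 2.99 to 3.91% in Tumor, and Kat2b 13.3 to 18.1% in Normal and 7.52 to 8.42% in Tumor. Crebbp held 3.22 to 4.35% and 2.97 to 3.81%.

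**Figure D3:**
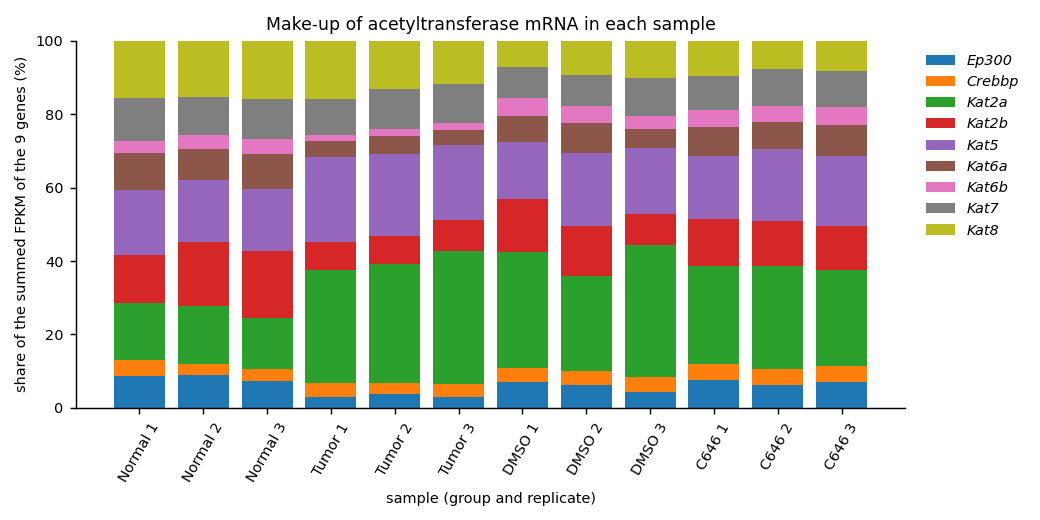
Share of each gene in the summed FPKM of the 9 acetyltransferase genes, in percent (vertical axis), for each of the 12 samples (horizontal axis). The Kat2a segment takes 14.0 to 15.6% in Normal and 30.8 to 36.1% in Tumor, and the Kat2b segment is 13.3 to 18.1% in Normal and 7.52 to 8.42% in Tumor.

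The lower members were mostly long transcripts, and long transcripts as a class were lower in the Tumor libraries. By the longest coding transcript in the annotation, Ep300 (9566 bases), Crebbp (10820 bases), Kat6a (9113 bases) and Kat6b (7699 bases) were among 936 tested genes of at least 7000 bases, whose median log2 change was -0.41, and 43.6% of which were called lower. The median of genes under 2000 bases was 0.29. Per sample, the median log2 level of the long genes minus that of the short genes was -1.87 to -1.55 in Normal and -2.84 to -2.27 in Tumor. Within its length class, the change of Ep300 had 22.01% of genes at or below it, that of Kat6a 28.4% and that of Kat6b 32.2%. Crebbp, of similar length, had 67.1% at or below it. Kat2b (4653 bases) had 24.6% of its class at or below it, and Kat2a (3046 bases) 86.3%.

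With the trend over transcript length removed in each sample, an alternative added after the data were seen, Ep300 was still lower, with a log2 change of -0.86 (limma adjusted p = 0.00373), Kat2b with -0.84 (limma adjusted p = 0.00354), Kat6a with -0.62 (limma adjusted p = 0.00864) and Kat6b with -0.53 (limma adjusted p = 0.0411). Kat2a was higher by 1.13 (limma adjusted p = 0.000353). Kat5 no longer passed (0.27, limma adjusted p = 0.0797), Kat8 passed as lower (-0.42, limma adjusted p = 0.0318), and Crebbp turned to 0.42 without passing (limma adjusted p = 0.142), which made 1 gene higher and 5 lower. With the trend over GC content removed, 1 was higher and 4 lower. Whether the length trend reflects tissue or RNA quality was not tested.

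**Figure D4:**
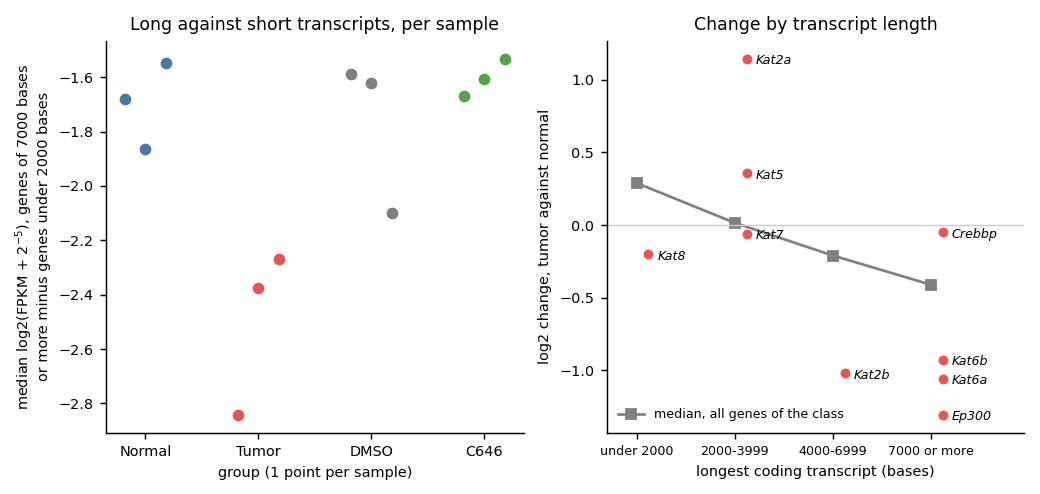
Left, median log2(FPKM + 0.03125) of tested genes with transcripts of 7000 bases or more minus that of genes under 2000 bases, 1 point per sample; right, log2 change of Tumor against Normal by class of transcript length, with the median of all genes of the class (grey squares) and the 9 acetyltransferases (red points, named). The 3 Tumor samples lie between -2.84 and -2.27, below all others, DMSO replicate 3 lies at -2.10, and the class medians go from 0.29 to -0.41. On the left, the genes tested for Normal and Tumor differ from those tested for DMSO and C646.

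Partner and pathway genes from fixed lists were counted in the same fit. Of 92 such genes tested, 20 were higher and 31 lower in Tumor, against 28.8% and 31.7% of all genes. Their median log2 change was -0.20. With the length trend removed, 22 were higher and 18 lower, and under quantile normalization 24 and 19. Of the 26 named below, Clock, Taf1, Atxn7, Epc2, Ing3, Phf20, Mcrs1 and Acss1 lost their call under at least 1 of the other settings, and none of the 26 changed sign.

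Among 19 partners of p300 and CBP, 4 were higher and 7 lower, with a median log2 change of -0.32. The CITED proteins, which bind the CH1 domain of p300 and CBP and compete there with other factors, moved in different directions. Cited4 went from 16.8 ± 8.86 FPKM to 382 ± 74.2 FPKM (SD, n = 3), a log2 change of 4.62 (SE 0.373, limma adjusted p = 7.62e-05), and Cited2 from 23.9 ± 1.40 to 143 ± 17.5 FPKM, a log2 change of 2.57 (SE 0.139, limma adjusted p = 2.29e-05). Cited1 was lower, at 62.8 ± 10.6 FPKM in Normal and 5.71 ± 7.47 FPKM in Tumor, a log2 change of -4.37 (SE 0.869, limma adjusted p = 0.00382). Its tumors measured 14.3, 1.02 and 1.79 FPKM, and the change was -5.49 without Tumor replicate 1 and -3.61 without Tumor replicate 2. Ncoa2, a p160 coactivator that brings p300 and CBP to nuclear receptors, was lower by a log2 change of -1.46 (limma adjusted p = 0.000373).

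Among 19 subunits of the GCN5 and PCAF complexes, 5 were higher and 3 lower, with a median log2 change of 0.17. Tada2a, the adaptor that ties GCN5 or PCAF into the ATAC complex, rose with Kat2a, from 7.09 ± 1.38 to 25.03 ± 2.37 FPKM (log2 change 1.83, limma adjusted p = 0.000176). Usp22, the SAGA deubiquitinase, had a log2 change of 0.95 (limma adjusted p = 0.00230). Atxn7, which anchors that deubiquitinase module in SAGA, fell with a log2 change of -0.73 (limma adjusted p = 0.0172), and Supt20, a SAGA core subunit, with -0.52 (limma adjusted p = 0.0127).

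Among 15 subunits of the TIP60 complex, 5 were higher and 2 lower, and the median log2 change was 0.42. Morf4l2 went from 64.7 ± 5.64 to 129 ± 11.5 FPKM (log2 change 1.00, limma adjusted p = 0.000694), and the helicase Ruvbl1 had a log2 change of 0.93 (limma adjusted p = 0.00187). Ing3 (-0.72, limma adjusted p = 0.0127), a reader of H3K4me3, and Epc2 (-0.69, limma adjusted p = 0.0211) were lower.

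Among 9 subunits of the MOZ, MORF and HBO1 complexes, 1 was higher and 4 lower, with a median of -0.30. Jade2, a scaffold of HBO1, is among the lower genes but reached 1 FPKM in Normal only, so it entered the test through the group where it was high, and its values, 7.40, 7.67 and 6.77 FPKM in Normal and 0.496, 0.725 and 0.715 FPKM in Tumor, are given as a description. Kat7 itself did not pass. Brpf3 was lower (-1.29, limma adjusted p = 0.000325) and Ing4 higher (0.78, limma adjusted p = 0.0120). Among 11 subunits of the MOF complexes, 2 were higher and 4 lower, with a median of -0.32. Wdr5 (0.71, limma adjusted p = 0.00212) and Mcrs1 (0.58, limma adjusted p = 0.0139) were higher, and Msl2 (-1.03, limma adjusted p = 0.00256) and Phf20 (-0.67, limma adjusted p = 0.0132) were lower.

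Of 10 further genes, those of the fixed list named other acetyltransferases, 2 were higher and 3 lower. Hat1, the cytoplasmic enzyme that acetylates newly made H4, rose from 18.4 ± 0.871 to 36.8 ± 5.37 FPKM (log2 change 0.99, limma adjusted p = 0.00107), and Naa40, which acetylates the N-terminus of H4 and H2A, had a log2 change of 0.76 (limma adjusted p = 0.00176). Clock (-0.77, limma adjusted p = 0.0375) and Taf1 (-0.74, limma adjusted p = 0.00744) were lower.

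Genes that supply acetyl-CoA or its carriers were the list with the most calls in 1 direction. Of 9 tested, 8 were lower and 1 higher, with a median log2 change of -2.16. Acss2, the nuclear and cytosolic acetyl-CoA synthetase, went from 213 ± 37.1 to 17.4 ± 3.10 FPKM (log2 change -3.61, limma adjusted p = 2.27e-05), and Slc25a1, the mitochondrial citrate carrier, from 999 ± 138 to 97.4 ± 37.7 FPKM (log2 change -3.41, limma adjusted p = 7.21e-05). Acss1, the mitochondrial synthetase, rose from 24.5 ± 4.33 to 34.8 ± 4.18 FPKM (log2 change 0.51, limma adjusted p = 0.0343). The adipocyte sum was 26499 to 33385 FPKM in Normal and 120 to 2512 FPKM in Tumor, and its part in this result was not tested.

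**Figure D5:**
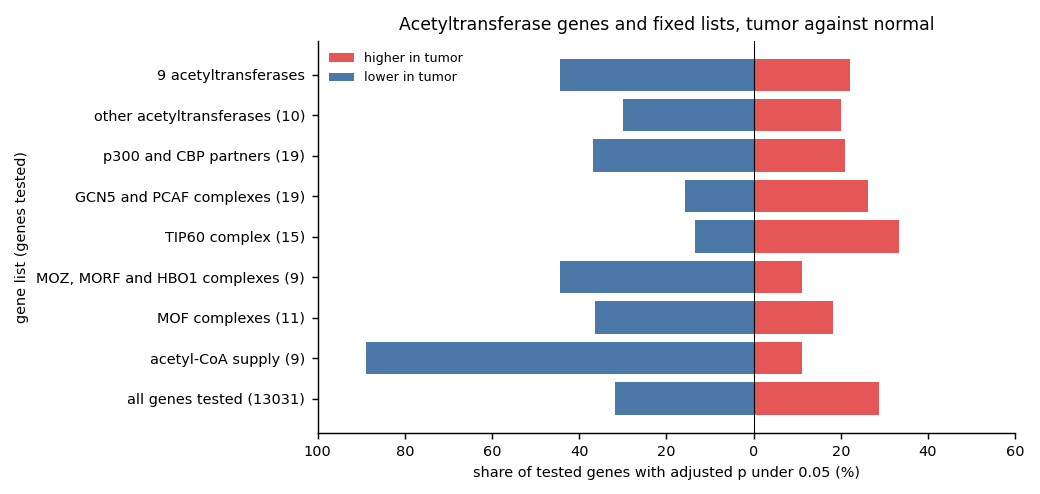
Share of tested genes, in percent, called higher (right, red) or lower (left, blue) in Tumor against Normal at an adjusted p under 0.05, for the 9 acetyltransferases, each fixed list (number of genes tested in parentheses) and all 13031 genes tested. The acetyl-CoA list stands out with 8 of 9 genes lower, and the acetyltransferases have 4 lower and 2 higher of 9.

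The second comparison asked whether C646 altered these mRNAs in tumors. None of the 9 genes passed the test in either direction, and 0% of the 12083 genes tested did so. By limma, 384 of the 12083 genes had an unadjusted p under 0.05 (169 higher and 215 lower), none of them an acetyltransferase of the 9, and the smallest adjusted p was 0.990. The median log2 change was 0.15 over the 9 genes, 8 of which lay above 0, and -0.01 over all genes. By transcript length, the median of all genes was -0.087 under 2000 bases and 0.081 at 7000 bases or more. Ep300, Crebbp, Kat6a and Kat6b are in the longest class, and the part of length in these changes was not tested.

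Ep300, whose product C646 inhibits, measured 10.1, 9.08 and 5.84 FPKM in the DMSO replicates and 11.3, 9.16 and 10.3 FPKM in the C646 replicates. DMSO replicate 3 was below the other five tumors, which overlapped. The log2 change was 0.33 (SE 0.230, 95% interval -0.21 to 0.88, limma adjusted p = 0.990), and without DMSO replicate 3 it was 0.10. The interval holds both a lower and a higher Ep300 level. Crebbp measured 5.51, 5.49 and 5.24 FPKM with DMSO and 6.54, 6.26 and 6.33 FPKM with C646. All C646 tumors were above all DMSO tumors, and the log2 change was 0.24 (SE 0.146, 95% interval -0.11 to 0.58, limma adjusted p = 0.990).

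Kat2a measured 45.6, 37.0 and 47.8 FPKM with DMSO and 39.8, 40.1 and 38.7 FPKM with C646, overlapping ranges, with a log2 change of -0.13 (95% interval -0.44 to 0.19). Kat2b measured 21.2, 19.5 and 11.0 FPKM with DMSO and 19.0, 17.9 and 17.7 FPKM with C646. DMSO replicate 3 was again the lowest, and the log2 change of 0.14 (95% interval -0.46 to 0.74) turned to -0.16 without it. The ratio of Kat2a to Kat2b was 1.90 to 4.36 with DMSO and 2.09 to 2.24 with C646.

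Kat6a measured 10.5, 11.7 and 6.85 FPKM with DMSO and 11.7, 10.7 and 12.5 FPKM with C646 (log2 change 0.30, 95% interval -0.23 to 0.82). Kat6b measured 6.91, 6.78 and 4.59 FPKM with DMSO and 6.81, 6.51 and 7.23 FPKM with C646 (log2 change 0.19, 95% interval -0.29 to 0.67). For both genes DMSO replicate 3 was the lowest sample and the other five overlapped. That library also held the lowest long-against-short gap of its table, -2.10 against -1.67 to -1.53 in the other five, and a myoepithelial marker sum of 347 FPKM, against 36.7 and 48.7 FPKM in DMSO replicates 1 and 2 and 59.8 to 66.0 FPKM in the 3 C646 tumors.

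Kat5 measured 22.1, 28.4 and 24.02 FPKM with DMSO and 25.8, 27.96 and 27.8 FPKM with C646 (log2 change 0.14, 95% interval -0.18 to 0.45), overlapping ranges. Kat7 measured 12.4, 12.3 and 13.6 FPKM with DMSO and 13.8, 14.4 and 14.5 FPKM with C646 (log2 change 0.15, 95% interval -0.13 to 0.44), with all C646 tumors above all DMSO tumors. Kat8 measured 10.2, 13.2 and 13.5 FPKM with DMSO and 14.5, 11.1 and 12.1 FPKM with C646 (log2 change 0.03, 95% interval -0.39 to 0.45). Crebbp and Kat7 were the 2 of 9 genes without overlap, both higher with C646, beside 4.04% of all genes tested above and 4.52% below. Neither passed the test, and an exact permutation test gave each its smallest possible p of 0.1.

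No gene of the fixed lists passed in this comparison, 0 of 89 tested. By the smallest unadjusted p in each list, Jade1, a scaffold of HBO1, measured 8.68 ± 1.48 FPKM with DMSO and 12.4 ± 0.550 FPKM with C646 (SD, n = 3; log2 change 0.52, limma adjusted p = 0.990), and Kmt2d, an H3K4 methyltransferase that works at enhancers with p300, 20.7 ± 1.33 and 28.4 ± 3.06 FPKM (log2 change 0.45, limma adjusted p = 0.990). Tada2b, the SAGA adaptor, measured 8.58 ± 1.1596 and 6.45 ± 0.655 FPKM (log2 change -0.41, limma adjusted p = 0.990). Slc25a1 had a log2 change of -0.36, Mbtd1 of 0.24, Hcfc1 of 0.19 and Ncoa3 of 0.16. The adipocyte sum was 17.9 to 79.6 FPKM with DMSO and 104 to 619 FPKM with C646.

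Untreated and injected tumors came from the same strain and age but from separately made tables. They also differed in injection and in the choice of tumor, thoracic when untreated and the biggest when injected. These differences cannot be told apart, so the levels are set side by side without a test. Ep300 was 3.06 to 3.74 FPKM in untreated tumors, 5.84 to 10.1 FPKM in DMSO tumors and 7.59 to 8.65 FPKM in normal gland. Kat6b was 1.75 to 1.999 FPKM in untreated tumors, 4.59 to 6.91 FPKM in DMSO tumors and 3.30 to 4.07 FPKM in normal gland. In the same order, Crebbp was 2.84 to 3.903, 5.24 to 5.51 and 3.11 to 4.39 FPKM. Kat6a was 4.38 to 4.69, 6.85 to 11.7 and 8.18 to 10.2 FPKM. Kat2b was 7.19 to 8.97, 11.0 to 21.2 and 13.4 to 18.9 FPKM. With DMSO, Ep300, Kat6a and Kat2b thus overlapped normal gland, and Kat6b and Crebbp lay above it. Kat2a was 30.9 to 38.4 FPKM in untreated and 37.0 to 47.8 FPKM in DMSO tumors, both above the 14.6 to 15.6 FPKM of normal gland. Kat8 was 12.4 to 16.1 and 10.2 to 13.5 FPKM. The summed FPKM of the 9 genes was 132 to 144 with DMSO and 144 to 149 with C646. The long-against-short gap was -2.10 to -1.59 in DMSO tumors, against -2.84 to -2.27 in untreated tumors. The gene sets differ, with 894 long and 3000 short genes for DMSO and 936 and 3319 for untreated tumors. The skeletal muscle sum was 10.9 to 324 FPKM in DMSO tumors. Kat2a led in both injected groups (43.4 ± 5.71 FPKM with DMSO and 39.5 ± 0.769 FPKM with C646, n = 3) with Kat5 next (24.9 ± 3.25 and 27.2 ± 1.24 FPKM), and with C646 Kat2b (18.2 ± 0.695 FPKM) stood apart as the third.

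Over all 12 samples, the genes with the profile most like that of Ep300 were sought by the root mean square distance between log2 profiles, each centred on its mean, among 11482 genes tested in both comparisons. The profile crosses the 2 tables, so the distance also holds what differs between them. Xiap, an inhibitor of caspases, was the nearest at 0.146 log2 units, and Tshz1 (0.163), Kat6a (0.167), Acbd5 (0.174) and Ncor1 (0.183), the nuclear receptor corepressor, followed. Kat6a was thus rank 3 of 11482, Kat2b rank 40 and Kat6b rank 191, whereas Crebbp was rank 1542, Kat7 2027, Kat5 3530, Kat8 4450 and Kat2a 7507. The long-against-short gap was lowest in the Tumor samples and next in DMSO replicate 3, where Ep300 was low too. Kat6a, Kat6b and Crebbp are in the length class of Ep300, and Kat2b is not. The part of transcript length in these distances was not tested. Xiap measured 10.7 to 12.1 FPKM in Normal, 4.34 to 5.78 FPKM in Tumor, 10.2 to 15.9 FPKM with DMSO and 14.0 to 16.3 FPKM with C646. In Xiap, Tshz1, Kat6a, Acbd5 and Ncor1, as in Ep300, DMSO replicate 3 was the lowest of the 6 injected tumors. These genes were chosen by their nearness to Ep300 over the same samples, so this likeness largely follows from the choice.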

How the data were processed

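RNA-seq values of 12 samples were used, 3 per group. The authors trimmed adaptors, mapped reads of poly-A, non-directional libraries to mm10 with TopHat2 2.1.1, and deposited for each sample the FPKM of every gene name, made with Cufflinks 2.2.1. The annotation behind the tables is not given in the sources used here. FPKM is divided by gene length and library size and is not a count, so read numbers are unknown and no counting interval was given. Low values still step by what 1 read is worth, and by this step Tumor replicate 3 was 1.53 times as deep as Tumor replicate 1, at 37.8% of the rows compared.

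Rows without a name (1837 of 26220 in each Normal and Tumor table, holding 3.41 to 4.56% of FPKM, and 0 of 24304 in each DMSO and C646 table) were dropped and rows with the same name summed. The pairs of groups come from tables of different rows and were fitted apart on log2(FPKM + 0.03125) by lmFit and trended eBayes of limma 3.58.1 (R 4.3.3). Genes had to reach 1 FPKM in 3 or more of 6 samples. P-values were adjusted by Benjamini-Hochberg over all genes, and the threshold was 0.05. A fold change on this scale understates the change of genes with low FPKM. All 9 acetyltransferases passed the filter in both comparisons. The scripts were tested on simulated data. Single genes were also compared with a two-sided exact permutation test. The rest was done in Python 3.11.15 (scipy 1.17.1, numpy 2.4.6, matplotlib 3.10.9 and pandas 2.3.3).

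The members and lists were chosen with earlier results of these data known. Lists held 101 symbols, and the symbols with no row of their own, because the row joined several names or was absent, were left out, so 92 were tested between Tumor and Normal and 89 between C646 and DMSO. Named from each list were up to 2 genes with the highest and 2 with the lowest change among those past the threshold, or, with none, the gene with the smallest p. Transcript lengths and GC content came from GENCODE vM21 and covered 93.6% and 93.4% of genes tested. Removing the trend with length or with GC content (lowess, span 0.3, in each sample) was added after seeing the data. Other settings were the pseudocounts 1 and 0.25, no filter, scaling by the median ratio, quantile normalization, eBayes without a trend, all samples in 1 fit, a replicate block, the highest row per name, and leaving out each sample. The labels number the 3 samples of a group as replicates, and p-values set the difference between groups against the spread between samples. That spread is between pools of 3 mice in Normal and between single mice in Tumor.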

Additional observations from a re-analysis of the deposited data

How the results depend on the processing

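Each acetyltransferase was refitted under 17 other settings per comparison. Ep300, Kat2a, Kat2b and Kat6a kept their direction and their call between Tumor and Normal in all 17, with Ep300 at -1.39 to -0.86 and Kat2a at 0.97 to 1.20, and Kat6b in 16. Kat5 lost its call in 10. The number of members higher was 1, not 2, with the GC trend removed, with eBayes without a trend, with the length trend removed, under quantile normalization and with a replicate block, and 1 to 2 when samples were left out in turn (1 when Normal replicate 1, 2 or 3 or Tumor replicate 1 or 3 was left out), while the number lower was 4 in each of those left-out fits. Crebbp turned to 0.42 with the length trend removed and 0.44 under quantile normalization and ranged from -0.16 to 0.10 with samples left out, being above 0 without Normal replicate 1 (0.088) or Tumor replicate 2 (0.10). Kat7 turned to 0.012 and 0.052 under those length and quantile settings. Pathway genes lower numbered 18 with the length trend removed, 19 under quantile normalization and 17 to 28 with samples left out (17 without Normal replicate 3), against 31, and all genes lower 2570 to 4172 against 4128 (2570 without Normal replicate 3 and 2686 without Normal replicate 2, fits in which fewer samples entered). Among 26 named list genes, 8 lost their call in 36 of 438 refits. Beyond the construction of each setting, the cause was not tested.

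Between C646 and DMSO no member and no pathway gene passed under any setting, and all genes lower numbered 0 to 12 with samples left out (12 without DMSO replicate 2). Ep300 ranged from 0.098 (without DMSO replicate 3) to 0.49. With samples left out, Kat2b ranged from -0.16 to 0.32 and Kat6b from -0.00038 to 0.29, both lowest without DMSO replicate 3, and Kat8 from -0.10 (without DMSO replicate 1) to 0.12, with -0.078 without C646 replicate 1.

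The replicate numbers were not taken to pair the samples. Deviations of same-numbered samples correlated at -0.038, -0.098 and 0.010 between Tumor and Normal, with a mean of -0.042. Between C646 and DMSO they correlated at 0.17, 0.070 and 0.11, not all above 0.1, with a mean of 0.12. Samples of different number had a mean correlation of 0.021 between Tumor and Normal and -0.059 between C646 and DMSO. With a replicate block, 3439 genes were higher and 3827 lower in Tumor, against 3758 and 4128, Ep300 kept its change of -1.31, and Kat5 lost its call (limma adjusted p = 0.0819).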
